A study of Mus musculus with 4 samples.

Results

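The genes described here are 4 steroid hormone receptor genes (Esr1, Esr2, Pgr and Nr3c1) and 2 steroid 5α-reductase genes (Srd5a1 and Srd5a2), 6 of 21887 protein-coding genes in the RefSeq table of the mouse assembly GRCm38.p6, whose coordinates are those of mm10. They were listed by name and not by any measured value, but with earlier results of these data known. The reductases are the link of these genes to androgen action. A peak was counted for a gene where its midpoint lay inside the gene or within 500 kb of either end. Isl1, a LIM-homeodomain transcription factor, was mapped by ChIP-seq in 2 samples of E14.5 genital tubercle of the CD1 strain, wild type in genotype, and 2 input DNA samples of the same tissue, strain, genotype and age had no peak list used here. The labels give neither the sex of the embryos nor the number of tubercles in a sample, nor whether the replicates came from separate embryos. Peak lists hold no expression values, so the tissue label was not checked against marker genes.

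In the embryo the genital tubercle is the bud from which the penis or the clitoris forms. Testosterone is converted by 5α-reductases to dihydrotestosterone, a more potent androgen that drives masculinisation of the bud, while estrogens act through their own nuclear receptors. Steroid receptors are ligand-activated transcription factors that bind short paired sequence elements in DNA and recruit coregulators.

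Isl1 peaks lay near most of these genes but were unevenly spread. The genes and 500 kb flanks of Esr1 and Srd5a2 held 13 of the 18 regions found in both replicates, 3 of them inside the genes. Esr2 had none. Of all protein-coding genes, 22.0% likewise had none, and 8.33% had at least the 7 of Esr1. The replicate 1 list held 8860 peaks and the replicate 2 list 10162, with scores of 20 to 1637 and of 20 to 1638 and medians of 90 and 96. The score is the authors' own whole number for a peak, with no formula given in the sources used here, and is read below mainly as a rank within its list. The lower score of each pair is used to order shared regions, although nothing shows that the scores of the lists are on an equal scale. A region is shared where peaks of both replicates overlap by at least 1 bp, and 6834 regions were shared in all. Of the 6 genes, 5 had at least 1 shared region within 500 kb, where 78.0% of all protein-coding genes had one. Replicate 1 alone placed a peak at 5 of the 6 genes (82.7% of all genes) and replicate 2 alone at 6 of 6 (84.3% of all genes). A shared region inside the gene was found at 2 of the 6, Esr1 and Srd5a2, against 8.32% of all protein-coding genes. These shares were described and not tested, and the count of 5 of 6 is near the background. The 6 genes had a median length of 63.3 kb, against 17.2 kb over all protein-coding genes. The part of length in these shares was not tested.

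**Figure D1:**
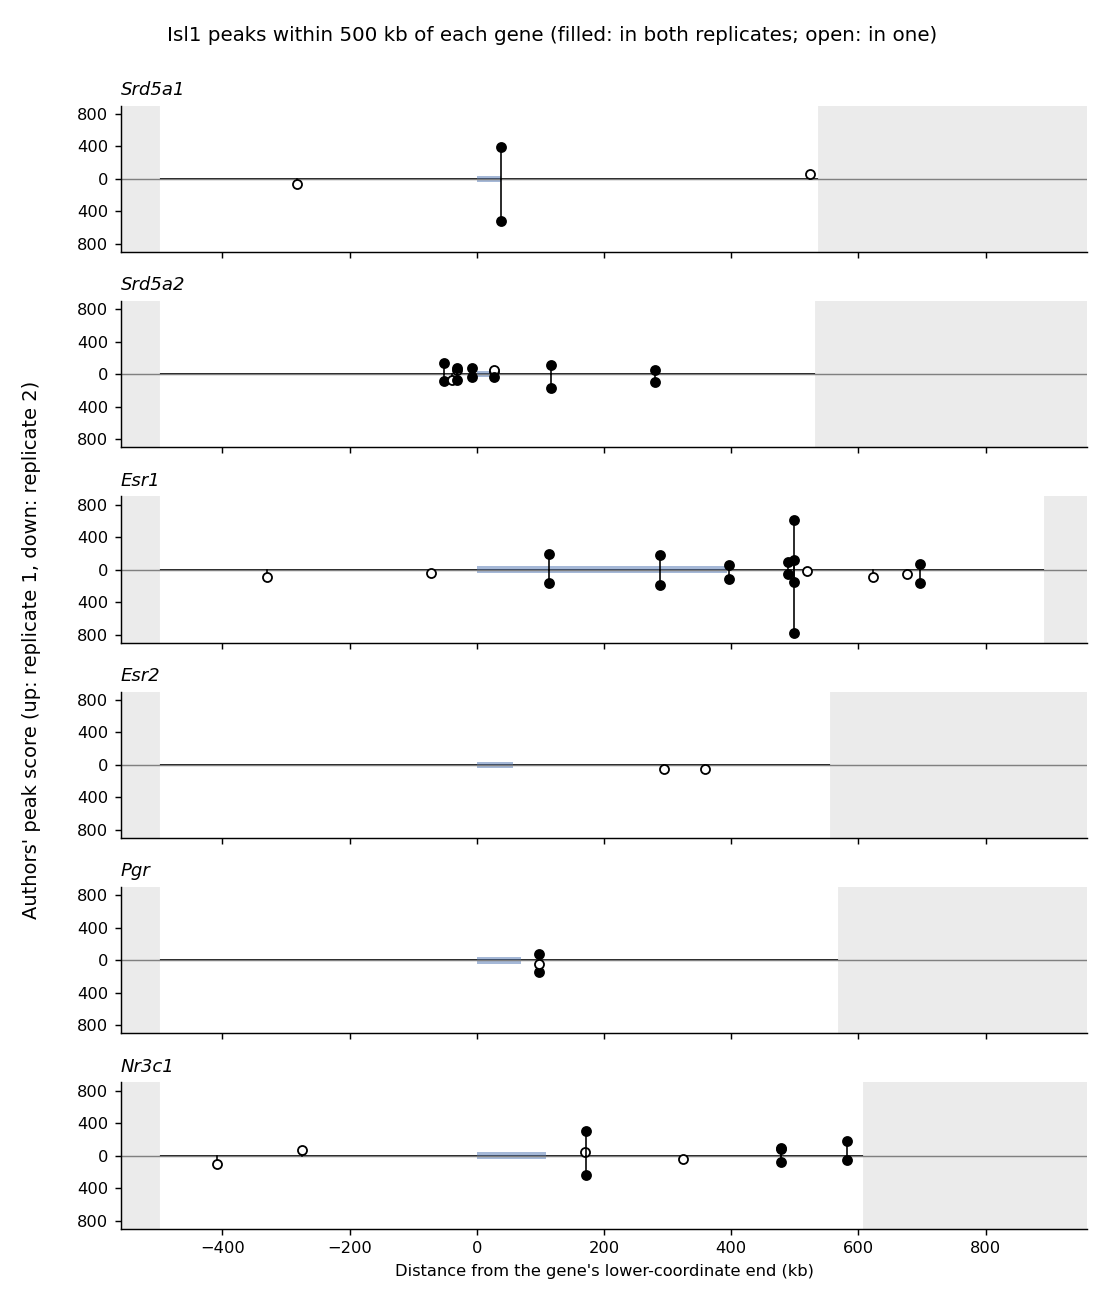
Isl1 peaks around each gene. The horizontal axis is the distance in kb from the gene's lower-coordinate end, the blue bar is the gene, the vertical axis is the authors' peak score (replicate 1 upward, replicate 2 downward), filled points are peaks found in both replicates, open points are peaks of one list, and grey marks positions beyond 500 kb. Srd5a2 has 1 shared region inside it and 5 on its sides, the higher-coordinate side of Esr1 holds the tallest pair (614 and 784), and Esr2 has 2 open points alone.

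Srd5a1 (NCBI gene 78925, chromosome 13, 69573449 to 69611485, minus strand) encodes a 5α-reductase. Its single shared region was strong and lay upstream of it, over the listed start of the neighbouring gene Nsun2, an RNA methyltransferase gene read in the opposite direction. The region spanned 69611745 to 69612064 (320 bp), with a score of 396 in replicate 1, higher than 92.8% of that list, and of 513 in replicate 2, higher than 96.2%. Both replicates thus placed it in the top 10% of their lists. Its midpoint was 437 bp upstream of the listed start of Srd5a1 (69611463) but only 116 bp upstream of that of Nsun2 (69612016), so that the distance was smaller to the neighbour. RefSeq promoter windows of GRCm38.p6, each from 250 bases before to 50 after a listed start, are given for both genes because the region covers the start of Nsun2 and not that of Srd5a1, and for Srd5a2 because it encodes an enzyme of the same activity. Capitals mark bases covered by the peaks of both replicates.
Nsun2: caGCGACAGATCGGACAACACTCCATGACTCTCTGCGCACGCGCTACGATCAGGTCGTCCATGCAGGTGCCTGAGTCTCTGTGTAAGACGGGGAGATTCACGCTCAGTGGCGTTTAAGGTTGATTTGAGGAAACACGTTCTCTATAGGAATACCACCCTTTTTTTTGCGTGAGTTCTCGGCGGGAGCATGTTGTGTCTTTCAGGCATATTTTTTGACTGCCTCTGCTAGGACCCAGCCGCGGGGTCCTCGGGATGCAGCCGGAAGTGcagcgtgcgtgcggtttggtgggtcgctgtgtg
Srd5a1: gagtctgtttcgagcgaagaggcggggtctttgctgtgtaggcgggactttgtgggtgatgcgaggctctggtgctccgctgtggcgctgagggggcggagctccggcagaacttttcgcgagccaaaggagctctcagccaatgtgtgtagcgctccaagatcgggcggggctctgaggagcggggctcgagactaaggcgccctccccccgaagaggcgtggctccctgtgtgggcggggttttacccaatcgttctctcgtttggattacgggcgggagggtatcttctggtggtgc
Srd5a2: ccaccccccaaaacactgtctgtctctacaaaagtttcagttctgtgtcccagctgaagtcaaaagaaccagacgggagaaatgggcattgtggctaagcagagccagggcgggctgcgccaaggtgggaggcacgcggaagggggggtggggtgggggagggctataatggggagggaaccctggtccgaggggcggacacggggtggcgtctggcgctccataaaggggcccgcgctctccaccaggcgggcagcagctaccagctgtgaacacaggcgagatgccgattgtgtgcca

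The window of Nsun2 (chr13:69611766-69612065, plus strand) had 265 of its 300 bases inside the peaks of both replicates. That of Srd5a1 (chr13:69611414-69611713, minus strand) had none, and ended 31 bp short of the shared region. The window of Srd5a2 (chr17:74047811-74048110, minus strand) was 5.51 kb from the closest shared region. None of the windows of the 5 genes present in the promoter table, which leaves out Nr3c1, was overlapped by a shared region, where 4.29% of protein-coding genes in that table had one overlapped. Among 5 short motifs searched on both strands of the 3 printed windows, the LIM-homeodomain core TAATGG was found in that of Srd5a2 and in neither other, on the forward strand with its first base 84 bases before the start, outside any peak. It was present in 6.46% of all 21263 protein-coding promoter windows. The related core TAATTG (6.83% of all windows), the receptor half-site TGTTCT (16.2%), which glucocorticoid and progesterone receptors recognise, and the half-site AGGTCA (14.7%), which estrogen receptors recognise, were in none of the printed windows. The GC box GGGCGG (46.2%), bound by Sp factors, occurred 4 times in the Srd5a1 window, 2 times in that of Srd5a2 and not in that of Nsun2. The ETS-family core CCGGAA, searched only after the sequence had been seen, lay in the Nsun2 window from base 9 after the start, within the bases covered by both replicates, and was in 18.7% of all windows. Matches are of letters alone, and none of the motifs overlaps another in these windows.

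The remaining peaks near Srd5a1 were each in 1 list. Replicate 1 had a peak with a score of 61 on the higher-coordinate side, 485 kb away, and replicate 2 had one with a score of 66 on the lower-coordinate side, 282 kb away. Neither reached its list's median score. None of the 6 other protein-coding genes within 500 kb held the midpoint of a shared region, although the region described above ran past the listed start of Nsun2.

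Srd5a2 (NCBI gene 94224, chromosome 17, 74014891 to 74047860, minus strand) encodes the 5α-reductase whose loss in humans causes undervirilised genitalia. It had 6 shared regions within 500 kb, spread over 333 kb and lying inside the gene and on both sides of it, none of which scored higher than 76.3% of the list in either replicate. The region inside the gene, at 74042174 to 74042300, was the weakest of all 18, with scores of 43 in replicate 1 and 32 in replicate 2, higher than 11.5% and 2.0% of their lists. It lay 5.61 kb downstream of the listed start, and the annotation used here has no exons, so that exon and intron cannot be told apart. A second replicate 1 peak inside the gene, with a score of 51, began 60 bp beyond it and was not matched in replicate 2.

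Downstream of Srd5a2 lay 3 regions in a row. The one closest to the gene, 7.75 kb from its end at 74007056 to 74007219, scored 76 in replicate 1 and 40 in replicate 2. The next, at 73984415 to 73984635 and 30.3 kb away, scored 76 and 70. A region 52.3 kb away, at 73962514 to 73962722, scored 138 and 87. Its replicate 1 score was above that list's median and its replicate 2 score was below. Upstream, the strongest region of the 6 by the lower of its scores lay 84.0 kb from the gene at 74131632 to 74132052, with 119 in replicate 1 and 174 in replicate 2, both above their list's median. The last, at 74295434 to 74295549, scored 57 and 100 and lay inside Memo1, which had the most shared regions (1) of the 10 neighbours. It was 248 kb from Srd5a2 but 0.63 kb upstream of a listed start of Memo1 (74294863), which lies short of that gene's higher-coordinate end (74295682). Single-list peaks added 1 in replicate 1 with a score of 53, 190 bp from the second of these regions, and 1 in replicate 2 with a score of 75. When peaks below their list's median score were left out, 1 of the 6 regions was left, and none inside the gene.

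Esr1 (NCBI gene 13982, chromosome 10, 4611989 to 5005633, plus strand) encodes estrogen receptor alpha and, at 394 kb, is the longest of the 6. It had 7 shared regions within 500 kb, 2 of them inside the gene and 5 beyond its downstream end, with none upstream. The first region inside it, at 4725548 to 4725967, scored 196 in replicate 1 and 166 in replicate 2, higher than 80.6% and 74.0% of their lists. This site was 15.6 kb downstream of the second of the gene's listed starts (4710158) and 114 kb from the first. The other, at 4899438 to 4899741, scored 176 and 186, higher than 77.6% and 78.4% of the lists. Both exceeded their list's median in each replicate, unlike the region inside Srd5a2.

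Just past the downstream end of Esr1, 3.46 kb away at 5008987 to 5009194, a weaker region scored 61 in replicate 1 and 117 in replicate 2. The remaining 4 lay inside Syne1, the gene of the nuclear envelope protein nesprin-1, which had the most shared regions (4) of the 7 neighbours. One of these was the strongest of all 18. It spanned 870 bp at 5109976 to 5110845, 105 kb from Esr1, and scored 614 in replicate 1 and 784 in replicate 2, higher than 96.7% and 98.8% of their lists. It was wider than 99.6% of all shared regions. A further region began 144 bp beyond it, at 5110990 to 5111185, with scores of 124 and 156, and another lay 8.56 kb before it, at 5101222 to 5101416, with 93 and 53. The closest listed start to all 3 was one of Syne1 (5069063), a gene read on the opposite strand to Esr1, and they lay 32.3 to 42.0 kb upstream of it. The most distant region, 304 kb from Esr1 at 5309458 to 5309603, scored 72 and 164. Every replicate 1 peak near Esr1 was shared, 7 of 7, whereas 7 of 12 replicate 2 peaks were. The 5 peaks of replicate 2 alone scored 22 to 97, and 2 of them lay on the upstream side. With peaks below their list's median left out, 4 regions stayed, among them both inside the gene.

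Esr2 (NCBI gene 13983, chromosome 12, 76120419 to 76177259, minus strand) encodes estrogen receptor beta and was the one gene of the 6 with no shared region within 500 kb. The closest was 660 kb away. Replicate 1 placed no peak there, and replicate 2 placed 2, both with a score of 51, higher than 11% of that list, at 237 and 301 kb beyond the gene's upstream end. The 13 other protein-coding genes of the neighbourhood had no shared region inside them. Among all protein-coding genes 22.0% likewise had none within 500 kb. A signal under the authors' threshold would not be listed, so the empty stretch is not evidence that Isl1 was absent from it.

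Pgr (NCBI gene 18667, chromosome 9, 8898900 to 8968611, plus strand) encodes the progesterone receptor, whose expression estrogen raises in many tissues. It had 1 shared region, on the downstream side, at 8996463 to 8996678 and 28.0 kb from the gene. The region scored 73 in replicate 1, below that list's median, and 144 in replicate 2, above it. It lay inside Arhgap42, a GTPase-activating protein gene, which had the most shared regions (1) of 2 neighbours. Replicate 2 had a further peak with a score of 44 beginning 75 bp past it. No peak of either list lay on the upstream side within 500 kb, and the closest shared region there was 938 kb away. With peaks under their list's median left out, Pgr had no shared region.

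Nr3c1 (NCBI gene 14815, chromosome 18, 39410545 to 39519421) encodes the glucocorticoid receptor. All 3 of its shared regions lay on the higher-coordinate side, none inside the gene and none inside any other protein-coding gene. The closest was also the strongest, at 39582286 to 39582518 and 63.0 kb away, with scores of 302 in replicate 1 and 233 in replicate 2, higher than 89.4% and 84.1% of their lists. The middle one, at 39889336 to 39889532 and 370 kb away, scored 93 and 75. The last, at 39992361 to 39992743 and 473 kb away, scored 176 in replicate 1 and 60 in replicate 2, a higher rank in the first (77.6%) than in the second (22.3%). This was the region nearest inside the 500 kb limit for any of the 6 genes, and the nearest one outside it, also at Nr3c1, was 548 kb away. Single-list peaks outnumbered the shared regions, with 3 in replicate 1 (scores of 46, 63 and 83) and 2 in replicate 2 (109 and 37). Of these, the peaks with scores of 63 and 109 lay on the opposite side, inside Arhgap26. None of the 4 other protein-coding genes there held a shared region within the window. Within 250 kb, Nr3c1 had 1 shared region. The strand of Nr3c1 is not given in the tables used here, so that upstream and downstream were not assigned.

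Across the 18 regions the replicates ranked the sites in a broadly like order, with a Spearman correlation of 0.63 (n = 18 regions from the same 2 libraries), beside 0.717 over all 6834. The rank within its list was higher in replicate 1 at 9 regions and in replicate 2 at the other 9. The lower score of each pair had a median of 74 at these genes and of 91 over all shared regions, and 11 of the 18 lay below that overall median. Only the region inside Syne1 and the one at Srd5a1 and Nsun2 were in the top 10% of shared regions by lower score. Of the peaks at the 6 genes, 18 of 24 in replicate 1 (75.0%, Wilson 95% interval 55.1 to 88.0%) and 18 of 30 in replicate 2 (60%, 42.3 to 75.4%) were shared, beside 78.5% and 68.3% of the whole lists. The intervals cover counting error alone and hold the whole-list shares, so no difference was detectable with so few peaks. Peaks found in both lists had a median score of 106 in replicate 1 and 130.5 in replicate 2, against 57 and 52 for those in one list.

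**Figure D2:**
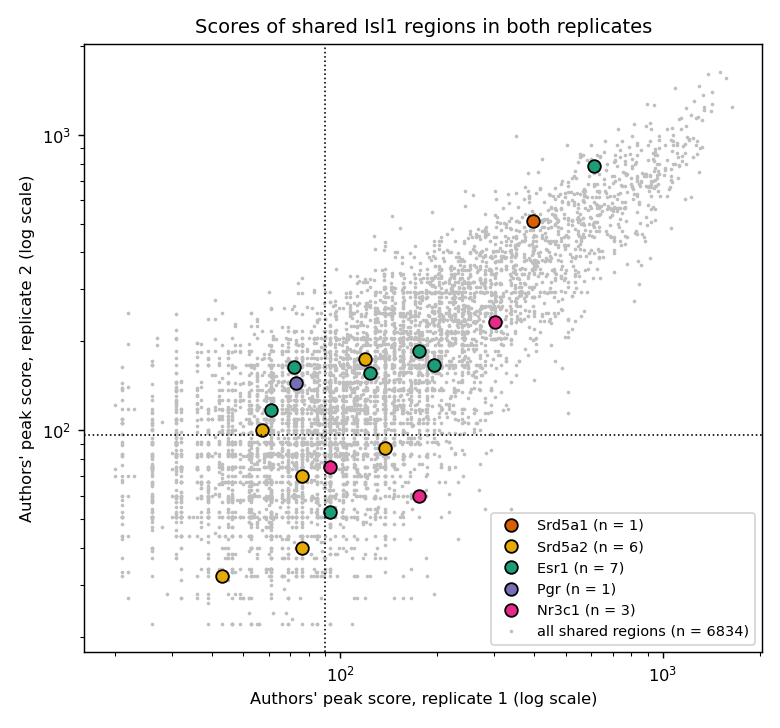
Authors' peak scores of shared regions in replicate 1 (horizontal, log scale) and replicate 2 (vertical, log scale). Coloured points are the 18 regions within 500 kb of the receptor and reductase genes, grey points are all 6834 shared regions, and dotted lines are the median scores of the lists (90 and 96); among the coloured points, the Esr1 point at 614 and 784 and the Srd5a1 point at 396 and 513 lie highest.

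By number of shared regions within 500 kb, Esr1 with 7 and Srd5a2 with 6 stood in the upper part of all protein-coding genes, of which 8.33% had at least 7 and 12.6% at least 6. Nr3c1 with 3 was above the overall median of 2, and 43.2% of genes had as many or more. Pgr and Srd5a1, with 1 each, and Esr2, with 0, were below it. The order is thus Esr1, Srd5a2, Nr3c1, Pgr together with Srd5a1, and Esr2, and with so few regions neighbours that differ by 1 cannot be separated. The windows of the 6 genes held 2.69 shared regions per Mb together, against 2.54 per Mb over the chromosomes, and this difference was not tested. A long gene has a wider window and more room inside it. Among 521 protein-coding genes with a length within 1.5-fold of that of Esr1, 59.1% had a shared region inside and 37.0% had at least 2, so 2 regions inside a gene of this length were common. Among the 4482 genes of a length like that of Srd5a2, 5.33% had one inside, and the region inside Srd5a2 was the weakest at the 6 genes. For the members with none inside, the shares at like length were 21.6% (Nr3c1), 13.1% (Pgr), 9.78% (Esr2) and 6.3% (Srd5a1).

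**Figure D3:**
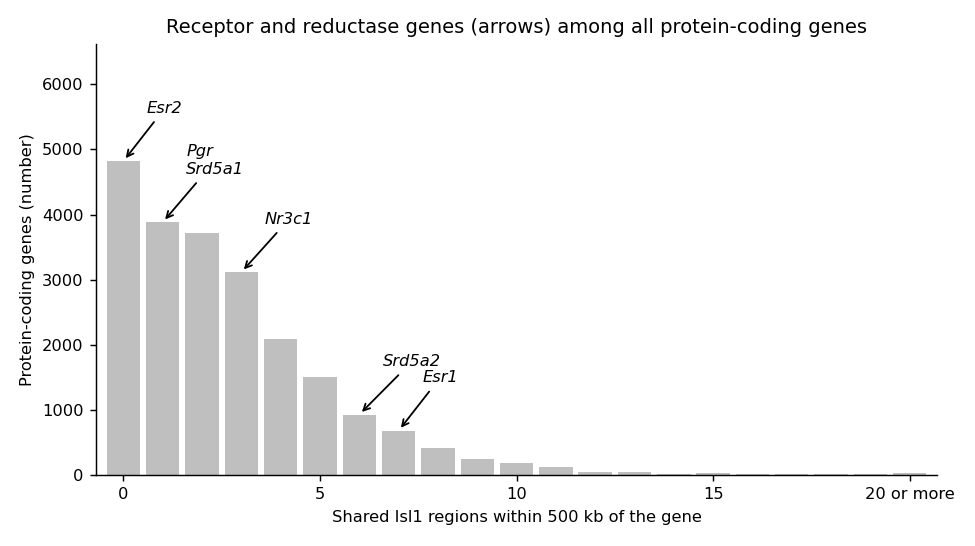
Number of shared Isl1 regions within 500 kb (horizontal) for all 21887 protein-coding genes, with the number of genes on the vertical axis; arrows mark the receptor and reductase genes. Esr1 (7) and Srd5a2 (6) lie in the right tail, Nr3c1 (3) near the middle, and Pgr, Srd5a1 (1 each) and Esr2 (0) at the left.

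Of 44 further genes of steroid action, 40 had a shared region within 500 kb (90.9%, against 78.0% of all protein-coding genes) and 8 had one inside (18.2%, against 8.32%). Their median length was 35.7 kb, against 17.2 kb over all protein-coding genes, and the part of length in these shares was not tested. The list was chosen with earlier results of these data known. Some of its windows overlap, so that the same shared region can count for several genes. Related nuclear receptors had one within 500 kb in 4 of 4 cases. Nr3c2, the mineralocorticoid receptor gene, had 8, with 1 inside it that scored 61 in replicate 1 and 75 in replicate 2. Esrrg and Esrrb, of the estrogen-related receptors, had 4 each, with 2 inside Esrrg, the better of which scored 85 and 233. The region closest to Esrrb was 282 kb away.

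Receptor chaperones and coregulators had a region within 500 kb at 12 of 13 genes (92.3%, against 78.0% of all protein-coding genes). A region inside was found at 1 of 13 (7.69%, against 8.32%), the coactivator gene Ncoa1, with scores of 120 and 213. This share inside was near that of all genes. Ncoa2, also a coactivator, had 6 within 500 kb, and the corepressor gene Ncor1 and the co-chaperone gene Ptges3 had 4 each. A region 19.5 kb from Ptges3 scored 1300 and 1461. It was also the closest region to an enzyme gene of the list, at 89.1 kb, and its link to either gene was not tested. Enzymes that make or convert steroids had a region within 500 kb at 13 of 15 (86.7%, against 78.0%) and inside at 2 (13.3%, against 8.32%). It lay inside Hsd11b1, which regenerates active glucocorticoid (scores of 131 and 152), and inside Por, the electron donor of steroidogenic P450 enzymes (724 and 921), the only region within 500 kb of Por. Hsd17b3, which makes testosterone, had 10, none of them inside or within 64 kb, and Akr1c14 and Hsd11b1 had 4 each. The region closest to Akr1c14 was 240 kb away.

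Steroid response genes had a region within 500 kb at 11 of 12 (91.7%, against 78.0% of all protein-coding genes). Regions inside were found at 3 of 12 (25.0%, against 8.32%). The groups hold few genes, and no group share was tested. Igf1, a growth factor gene, had 7, with 3 inside it, the best at 138 and 434, and Zbtb16, a zinc finger gene induced by glucocorticoid and progestin, had 3 inside it, the best at 162 and 212. Greb1, an estrogen-induced gene, had 4, with 1 inside that scored 62 and 50. The clock gene Per1 had 8 and Pmepa1 had 6, with none inside either. The closest was 231 kb from Per1 and 64.6 kb from Pmepa1. The 4 genes with none within 500 kb, named after their counts were seen, were the related reductase gene Srd5a3, Hsd17b2, the co-chaperone gene Fkbp4 and the glucocorticoid-induced gene Tsc22d3. At Srd5a3 the closest shared region was 544 kb away, and 2 replicate 1 peaks in the window had no partner in replicate 2.

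**Figure D4:**
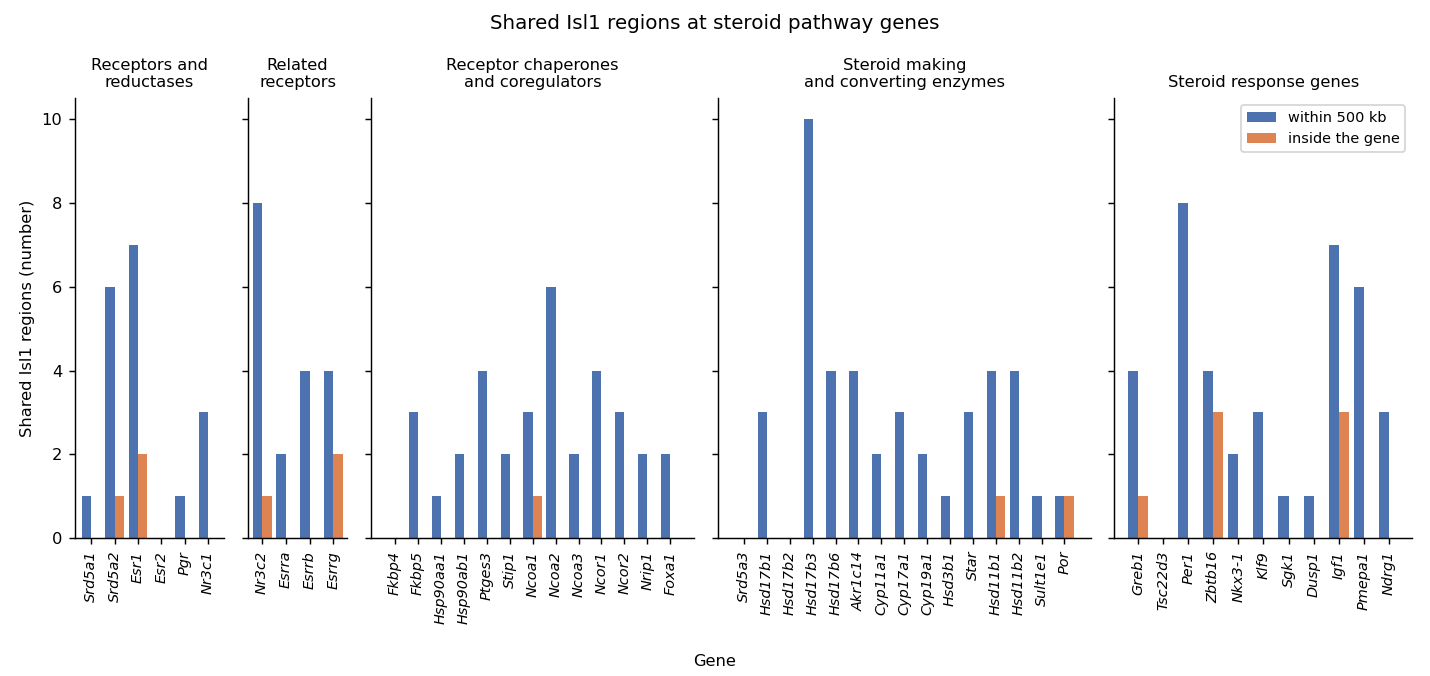
Number of shared Isl1 regions (vertical) within 500 kb of each gene (blue) and inside it (orange), for the receptor and reductase genes on the left and for further steroid pathway genes in 4 groups. Hsd17b3 has the tallest bar (10) with none inside, while Igf1 and Zbtb16 have 3 inside each.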

How the data were processed

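Isl1 ChIP-seq peaks of 2 genital tubercle samples were used, grouped and numbered by their titles. Per the submitters' processing notes, Trimmomatic 0.35, Bowtie2 2.2.6, MACS2 2.1.0.20150731 and bedtools were used with build mm10; no source used here gives their order, their settings or the use of the input. Per the labels' protocols, chromatin was sheared to 150 to 400 bp and read as 75 bp single-end reads. Each list gave, as the authors deposited it, a position and a whole-number score of unstated formula per peak, without summit, strand or read count, so that depth is unknown.

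Peaks overlapping by at least 1 bp were joined into shared regions with Python 3.11.15 and pandas 2.3.3, and the midpoint of the longest overlap between peaks gave a region's place. Counting was tested on simulated data. Gene positions came from RefSeq (GRCm38.p6), and all 50 gene names used matched. No test was planned: there were 2 peak lists and no second condition. The genes, the pathway list of 44 genes (1 of which is counted but not reported by itself here) and the motifs were chosen with earlier results of these data known; the ETS core was added after the sequence was seen. Further genes were named by rule: every pathway gene with a shared region inside it, the 3 of each group with most within 500 kb (ties by alphabet), and in each window the other gene with most regions inside it, where any had one. The 4 pathway genes with none within 500 kb, Nsun2 and Arhgap26 were named after their values were seen. The alternatives were a 50% reciprocal overlap, peaks at or above their list's median score, windows of 250 kb and 1 Mb, the midpoint of the joined span, and each replicate alone.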

Additional observations from a re-analysis of the deposited data

How the results depend on the processing

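Of 126 results under alternatives, 100 stayed within 1.5-fold of the value reported or within its interval and 26 moved, 20 of them counts at single genes. The stricter score limit moved most: with only peaks at or above their list's median score, the 6 genes had 7 shared regions in place of 18, 1 gene had one inside in place of 2, 1 gene exceeded the overall median in place of 3, and 5 pathway genes had one inside in place of 8. The limit leaves fewer peaks in both lists. A window of 1 Mb gave 46 regions. With a single replicate and its unshared peaks included, the count was 24 to 30 at the 6 genes; the higher value is that without replicate 1. With either replicate alone, the number of genes with a region within 500 kb was 5 to 6 of 6, and that inside 2 in each. Within 500 kb, 82.7% (replicate 1) and 84.3% (replicate 2) of all protein-coding genes had a peak. With only peaks at or above their list's median score, 4 of the 6 genes had a shared region within 500 kb. Shares over all protein-coding genes are not given for this limit, nor for peaks inside genes in a single list. Whether these counts changed more than those of other genes therefore cannot be told. Requiring 50% reciprocal overlap or using the midpoint of the joined span left 18 regions. No paired analysis was possible because no peak list of the inputs was used, although ChIP and input libraries carry like replicate numbers. Since depth is unknown and sites under the authors' threshold are not listed, a count of 0 sets no limit on weak binding.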

Other observations

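Several of these receptor genes lie beside members of one gene family, and the shared regions were not spread alike over them. Esr1 stands 14.6 kb from Syne1 and Esr2 9.49 kb from Syne2, paralogous genes of nuclear envelope proteins. Syne1 (531 kb) had 4 shared regions inside it, and Syne2 (293 kb) had none and no peak of either list. Nr3c1, Pgr and Nr3c2 each lie beside a gene of the Graf family of GTPase-activating proteins, at 34.3 kb from Arhgap26, 23.9 kb from Arhgap42 and 5.35 kb from Arhgap10. Arhgap26 (775 kb) had 2 shared regions inside it, Arhgap42 (247 kb) had 1 and Arhgap10 (268 kb) had 2. The receptor genes Nr3c1 (109 kb) and Pgr (69.7 kb) had none inside, and Nr3c2 (347 kb) had 1. Among genes of a length like that of Nr3c1 and of Pgr, 21.6% and 13.1% had a shared region inside. The part of length in these counts was not tested. The regions inside Arhgap26 lay 599 kb or more from Nr3c1, outside its 500 kb window. These gene pairs were noticed after the peaks had been seen, and no difference between them was tested.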
